A study of Xenopus laevis with 8 samples.

Results

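Animal cap explants of the frog Xenopus laevis were compared across gastrulation, with the late gastrula stage 12.5 set against the early gastrula stage 10.5. The 4 libraries of these stages were taken from the 8 of the series by the stage given in their labels. Each stage has 1 library whose title begins with ExpA and 1 that begins with ExpB, called letters A and B here, and fold changes were computed with the letter as a block. What distinguishes the letters is not written in the labels. The p-values measure the spread that stage and letter leave unexplained among all 8 libraries, which may be technical in part.

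All explants came from unmanipulated wild-type embryos that served as untreated controls. The caps were cut at stage 8, healed in Modified Barth's Saline and kept in a more dilute saline with gentamycin. Stage 12.5 explants were collected in the late gastrula period and stage 10.5 explants in the early one. Poly-A RNA was read in pairs of 100 bp without strand information. Animal caps are cut to leave out the mesoderm and endoderm that lie beside the ectoderm in the embryo. Transcripts of mesoderm and endoderm genes were still counted here, with a higher sum in letter B, as given below. How many explants went into a library is not given in the labels.

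During gastrulation the ectoderm of a frog embryo loses the broad competence of the blastula and takes on epidermal or neural identity. BMP signalling favours epidermis over neural tissue. Within the ventral epidermis, Notch signalling between neighbouring cells of the inner layer limits how many become multiciliated cells or ionocytes, while secretory cells and mucus-producing goblet cells complete the mucociliary epithelium. Basal cells remain beneath as progenitors.

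The 2 stages differed in many genes, about as many higher as lower. Of 28490 genes tested, 7569 were called at an adjusted p under 0.05 by the quasi-likelihood test of edgeR (Benjamini-Hochberg adjusted), which is 26.6% of them. Of these, 3758 (13.2%) were higher at stage 12.5 and 3811 (13.4%) were lower. The change was at least 1 on the log2 scale for 1927 of the higher and 1947 of the lower genes. All 7569 moved the same way in both letters. The call was made on the same values and favours such genes, so this is no separate evidence. In bulk samples a change in the number of cells of a type and a change in RNA per cell cannot be told apart.

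The libraries held 37446022 (A) and 42615766 (B) counts at stage 12.5, and 33170889 (A) and 35586229 (B) counts at stage 10.5. The first principal component of the 4 libraries carried 50.2% of the variance and separated the stages. The second carried 38.3% and separated the letters. Across the 28490 genes, the log2 fold changes computed within letter A and within letter B had a Pearson correlation of 0.617, a value across genes, which are not independent replicates. Without the letter term, 4006 genes were called, all of them among the 7569. Leaving out stage 10.5 replicate B or replicate A gave 2007 or 3043 calls, and leaving out stage 12.5 replicate A gave 4461. Of 258 called genes followed through these settings, 133 calls were lost without stage 10.5 replicate B, 105 without stage 10.5 replicate A, 94 without the letter term, 87 without stage 12.5 replicate A, and 58 when its replicate B was left out, and 0 changed direction. Scaling by library size alone, without the TMM factors of 0.818 and 0.932 at stage 12.5 and 1.03 and 1.12 at stage 10.5, moved the median log2 fold change of all genes by -0.295 and made 24.9% of 8459 called genes higher, against 49.6% of the calls with TMM. Directions below are relative to the TMM scaling.

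**Figure D1:**
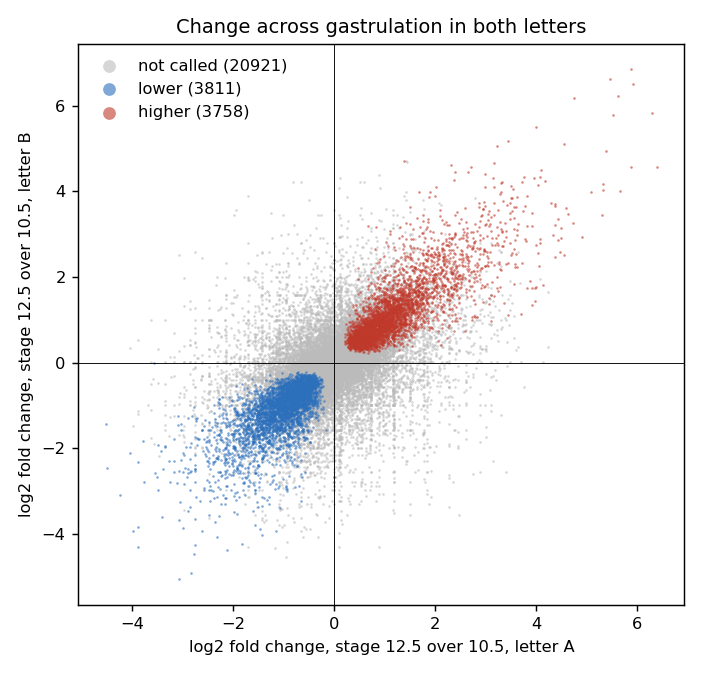
The log2 fold change of stage 12.5 over stage 10.5 within letter A (horizontal axis) and within letter B (vertical axis) is shown for each tested gene, with genes called higher or lower in colour and the rest in grey. The 3758 genes called higher lie in the upper right and the 3811 called lower in the lower left.

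Lists of genes with known roles were set against the background of all tested genes, whose median log2 fold change was -0.00151. The lists and their members were chosen with earlier results of these data known. Their shares and medians therefore describe the lists and are no independent test of them. Calls over all genes also fell when a library of the 2 stages was left out. Fewer calls in a list in those settings are therefore not by themselves particular to that list. Apart from the list of key regulators (1.52), the highest medians belonged to multiciliated cell regulators (2.15), Hes, Hey and Nrarp genes (1.36), keratins (1.30), ectoderm transcription factors (1.18) and ribosomal proteins (1.11). The lowest belonged to mesoderm and endoderm genes (-1.21), maternal and oocyte transcripts (-0.68), neural genes (-0.48), blood and muscle genes (-0.48) and blastula competence factors (-0.38). The blood and muscle median rested on 11 genes and was 0.09 within letter A and -0.21 within letter B. As single libraries were left out it ranged from -0.475 to 0.0998, so its sign was not stable.

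Transcription factors of the non-neural ectoderm were among the groups that rose. Of 24 tested members, 15 were called higher (62.5%, against 13.2% of all genes) and 0 lower, and 23 had a positive log2 fold change. Dlx3, a homeobox factor of the epidermis, had 164 (A) and 106 (B) CPM from its L copy at stage 12.5, against 31.0 (A) and 24.7 (B) CPM at stage 10.5. Both late libraries lay far above both early ones. The log2 fold change of dlx3.L was 2.27 ± 0.24 (SE, adjusted p = 0.000727 in edgeR), and that of dlx3.S was 2.12 ± 0.32 (adjusted p = 0.00235). Grhl3, a grainyhead factor needed for the epidermal barrier in vertebrates, was already abundant early: grhl3.L had 1046 and 962 CPM at stage 12.5, against 531 and 400 CPM at stage 10.5. Both late libraries were above both early ones, with a log2 fold change of 1.12 ± 0.11 (adjusted p = 0.000595). Its S copy rose by 1.06 ± 0.20 (adjusted p = 0.00656), a call that was lost without stage 10.5 replicate B (adjusted p = 0.093) or stage 12.5 replicate A (adjusted p = 0.058). Gata3.S, a GATA factor of ventral ectoderm, had 65.2 and 30.0 CPM at stage 12.5, against 8.33 and 8.79 CPM at stage 10.5. The rise was larger in letter A, and the log2 fold change was 2.48 ± 0.42 (adjusted p = 0.00425), and 1.52 or 3.19 without stage 12.5 replicate A or B. The largest fold in the list belonged to a scarce transcript, klf4.S, with 3.69 and 0.957 CPM at stage 12.5 against 0.235 and 0.151 CPM at stage 10.5 (log2 fold change 3.41 ± 0.67, adjusted p = 0.00762). That call was lost without stage 10.5 replicate A (adjusted p = 0.09), stage 10.5 replicate B (0.07) or stage 12.5 replicate A (0.1), and the log2 fold change was 2.46 or 4.11 without stage 12.5 replicate A or B. The other called members were tfap2c.S, klf5.S, grhl1.L, grhl1.S, dlx6.L, dlx6.S, msx1.S, gata2.L and gata2.S, with log2 fold changes of 0.48 to 2.08. Among them, tfap2c.S kept its call in 10 of 15 alternative settings, dlx6.L in 11 and dlx6.S in 14. The 9 members that did not pass the test included both copies of tfap2a, dlx5 and msx2.

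Keratins, the intermediate filament proteins of epithelia, rose in the same direction. Of 20 tested members (45 are listed, and 25 had too few counts), 11 were called higher and 0 lower. The higher share was 55%, against 13.2% of all genes. Krt12.S had 841 and 671 CPM at stage 12.5, against 69.5 and 54.3 CPM at stage 10.5. Both late libraries lay far above both early ones, with a log2 fold change of 3.61 ± 0.23 (adjusted p = 0.000367 in edgeR). Its L copy rose more steeply to a lower level, with 36.2 and 20.9 CPM at stage 12.5 against 0.821 and 0.628 CPM at stage 10.5 (log2 fold change 5.27 ± 0.36, adjusted p = 0.000392). Krt5.7.S reached 4590 and 2591 CPM at stage 12.5, against 884 and 506 CPM at stage 10.5. Letter A was above letter B at both stages for this gene. Krt17.L was near the detection limit, at 0.588 and 0.907 CPM at stage 12.5 against 0 and 0.0502 CPM at stage 10.5, and was at least 9.15-fold higher when the early libraries were set to a floor of 3 counts. Its call was lost without the letter term (adjusted p = 0.11) and with stage 10.5 replicate A left out (0.15), stage 10.5 replicate B (0.19) or stage 12.5 replicate A (0.12). All keratins together held 1.1% (A) and 0.736% (B) of counts at stage 12.5, against 0.347% (A) and 0.273% (B) at stage 10.5.

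Desmosomes and plakins, which anchor keratin filaments at cell junctions, showed 10 of 14 members higher and 2 lower. These shares were 71.4% and 14.3%, against 13.2% and 13.4% of all genes, so the lower share was near that of all genes. Periplakin gave the steepest rise: ppl.S had 19.1 and 11.9 CPM at stage 12.5, against 0.176 and 0.452 CPM at stage 10.5 (log2 fold change 5.50 ± 0.67, adjusted p = 0.00111 in edgeR). Without stage 10.5 replicate A or B the log2 fold change was 4.63 or 6.78. Its L copy had 15.0 and 7.26 CPM at stage 12.5, against 0.939 and 2.14 CPM at stage 10.5 (log2 fold change 2.78 ± 0.50, adjusted p = 0.00513), with values of 1.96 to 3.78 when each library of the 2 stages was left out in turn. Dsg2 split by copy: the S copy of this desmosomal cadherin was lower (58.0 and 44.7 CPM at stage 12.5, 93.2 and 60.9 CPM at stage 10.5), while the L copy rose (326 and 287 CPM at stage 12.5, 176 and 137 CPM at stage 10.5). The call of dsg2.S was lost without the letter term (adjusted p = 0.22) and with stage 10.5 replicate A left out (0.18), stage 10.5 replicate B (0.084) or stage 12.5 replicate A (0.096). Without stage 10.5 replicate A, stage 10.5 replicate B or stage 12.5 replicate A, 6, 4 or 5 members of the list were called higher and 0 lower, and with no letter term 6 were higher and 1 lower. Among cadherins and tight junction genes, 9 of 41 were higher and 9 lower, against 13.2% and 13.4% of all genes. Leaving out stage 10.5 replicate A gave 2 higher and 5 lower, leaving out its replicate B gave 2 and 4, and 4 were higher without stage 12.5 replicate A or with no letter term. The list's median of 0.12 was -0.17 under library size scaling. E-cadherin (cdh1.S) rose to 560 and 426 CPM at stage 12.5, against 223 and 176 CPM at stage 10.5. Its scarcer L copy did not rise, with 3.79 and 3.02 CPM at stage 12.5 against 4.75 and 7.36 CPM at stage 10.5. Cdh1.L was not called (log2 fold change -0.84 ± 0.30, adjusted p = 0.0721 in edgeR). N-cadherin also rose, with cdh2.S at 12.3 and 12.4 CPM at stage 12.5 against 3.52 and 3.74 CPM at stage 10.5 (log2 fold change 1.76 ± 0.24, adjusted p = 0.00172), and cdh2.L rose by 1.55, a call lost without stage 10.5 replicate A (adjusted p = 0.12), stage 10.5 replicate B (0.12) or stage 12.5 replicate B (0.089). Claudin 5, a tight junction protein, fell: cldn5.L had 0.196 and 0.403 CPM at stage 12.5, against 2.58 and 5.53 CPM at stage 10.5 (log2 fold change -3.70 ± 0.41, adjusted p = 0.000835), and cldn5.S fell by 2.80, a call lost without the letter term (adjusted p = 0.088).

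In the list of basal epidermis genes, 5 of 13 were higher and 0 lower, against 13.2% and 13.4% of all genes. The count was 3 higher without stage 10.5 replicate A, and 1 member was lower without stage 12.5 replicate B. Trim29.L, whose product associates with keratin filaments in basal cells, had 1081 and 743 CPM at stage 12.5, against 262 and 163 CPM at stage 10.5 (log2 fold change 2.12 ± 0.12, adjusted p = 0.000304 in edgeR), and trim29.S rose by 2.32 ± 0.15. Col17a1.L, a hemidesmosomal collagen, had 65.5 and 20.6 CPM at stage 12.5, against 12.4 and 5.75 CPM at stage 10.5. Letter A was above letter B at both stages, and the late B library stayed above both early libraries. Its log2 fold change was 2.12 ± 0.39 (adjusted p = 0.00572), and its call was lost without the letter term (adjusted p = 0.12) and with stage 10.5 replicate A left out (0.074). The other 2 called members were itga6.L and itga6.S, an integrin subunit of basal cells, at 1.28 ± 0.12 and 1.221 ± 0.234, the call of itga6.S being lost without stage 10.5 replicate A (adjusted p = 0.062). Tp63, the factor that marks basal progenitors, did not pass: tp63.S had 3.33 and 2.65 CPM at stage 12.5, against 1.23 and 0.879 CPM at stage 10.5 (log2 fold change 1.53 ± 0.62, adjusted p = 0.1075). The L copy of tp63 held 81 counts over the 8 libraries and was not tested.

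The regulators of multiciliated cells had the highest median of all lists, and 13 of 21 tested members were higher and 0 lower. The higher share was 61.9%, against 13.2% of all genes. Mcidas, a coiled-coil protein that starts the multiciliated programme, was low early. Mcidas.S had 65.9 and 31.2 CPM at stage 12.5, against 0.792 and 0.503 CPM at stage 10.5. Both late libraries far exceeded both early ones, with a log2 fold change of 6.19 ± 0.66 (adjusted p = 0.000742 in edgeR). Mcidas.L had 111 and 61.5 CPM at stage 12.5, against 2.14 and 3.79 CPM at stage 10.5 (log2 fold change 4.93 ± 0.51, adjusted p = 0.000701). Its log2 fold change was 3.98 or 5.74 without stage 12.5 replicate A or B. Foxj1, the master factor of motile cilia, was present early. Foxj1.S had 341 and 221 CPM at stage 12.5, against 54.6 and 50.2 CPM at stage 10.5 (log2 fold change 2.43 ± 0.30, adjusted p = 0.00122), and foxj1.L had 240 and 134 CPM at stage 12.5, against 32.3 and 34.8 CPM at stage 10.5 (2.53 ± 0.48, adjusted p = 0.00638). The groups did not overlap for either copy. The call of foxj1.L was lost without stage 10.5 replicate B (adjusted p = 0.06) and with stage 12.5 replicate A left out (log2 fold change 1.61, adjusted p = 0.052), and its log2 fold change was 3.17 without stage 12.5 replicate B. A further forkhead gene of this family, foxj1.2.S, was also among the steepest rises, with 37.2 and 19.5 CPM at stage 12.5, against 0.880 and 1.16 CPM at stage 10.5. Its log2 fold change of 4.89 was 3.76 or 5.75 without stage 12.5 replicate A or B. The remaining called members were both copies of myb, ccno and foxn4, with cdc20b.L, gmnc.L and rfx2.S. The call of rfx2.S was kept in 10 of 15 alternative settings, and those of ccno.S and cdc20b.L in 14 each. Rfx2.L was not called (log2 fold change -0.08).

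Gmnc, the geminin relative that acts upstream of mcidas, was unequal between copies. Gmnc.L had 101 and 58.5 CPM at stage 12.5, against 20.4 and 15.8 CPM at stage 10.5 (log2 fold change 2.15 ± 0.61, adjusted p = 0.0331 in edgeR). This call was lost without the letter term (adjusted p = 0.081), in DESeq2 (0.065) and with stage 10.5 replicate A left out (0.093), stage 10.5 replicate B (0.22) or stage 12.5 replicate A, where the log2 fold change was 1.33 (adjusted p = 0.28). Gmnc.S was scarce, at 0.327 and 0.202 CPM at stage 12.5 against 1.29 and 0.251 CPM at stage 10.5, and did not pass the test.

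Structural genes of motile cilia were also higher as a group, with 20 of 36 called higher and 2 lower and a median of 0.93. These shares were 55.6% and 5.56%, against 13.2% and 13.4% of all genes. The number called higher was 5 without stage 10.5 replicate B, 8 without its replicate A and 10 when stage 12.5 replicate A was left out. Tekt2.S, a tektin of the ciliary microtubules, had 8.99 and 5.996 CPM at stage 12.5, against 0.352 and 0.754 CPM at stage 10.5 (log2 fold change 3.70 ± 0.65, adjusted p = 0.00472). Its call was lost without stage 10.5 replicate A (log2 fold change 3.02, adjusted p = 0.053), and its log2 fold change was 4.60 without stage 10.5 replicate B. The genes called lower were ift140.L and ift88.S, which encode carriers of intraflagellar transport. The call of ift88.S was lost with no letter term (adjusted p = 0.13) and with stage 10.5 replicate A left out (0.24), stage 10.5 replicate B (0.079) or stage 12.5 replicate A (0.18). Ift140.L had 17.1 and 24.6 CPM at stage 12.5, against 35.0 and 42.1 CPM at stage 10.5. Centriole assembly genes gave 5 of 18 higher and 1 lower, against 13.2% and 13.4% of all genes. With any one of stage 10.5 replicate A, stage 10.5 replicate B and stage 12.5 replicate A left out, 1 was higher, with stage 12.5 replicate B left out 3, and with no letter term 2. Cetn4.L, a centrin, had 40.0 and 28.0 CPM at stage 12.5, against 15.7 and 10.4 CPM at stage 10.5 (log2 fold change 1.39 ± 0.18, adjusted p = 0.00151). Cep164.L, a protein of centriole appendages, was called lower, at 10.2 and 15.97 CPM at stage 12.5 against 24.1 and 45.6 CPM at stage 10.5, but not without the letter term (adjusted p = 0.056).

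Ionocyte genes were less uniform. Of 22 tested, 5 were higher and 1 lower, against background shares of 13.2% and 13.4%. The higher count was 2 with no letter term or without any one of stage 10.5 replicate A, its replicate B and stage 12.5 replicate A, or 3 if stage 12.5 replicate B was left out. Foxi1, the forkhead factor that specifies ionocytes and acts earlier in the ectoderm, had 348 and 195 CPM from its L copy at stage 12.5, against 75.9 and 56.7 CPM at stage 10.5, without overlap. The log2 fold changes were 1.98 ± 0.49 for foxi1.L (adjusted p = 0.0196 in edgeR) and 1.52 ± 0.37 for foxi1.S (adjusted p = 0.0176). The call of foxi1.L was lost without the letter term (adjusted p = 0.091) and without any one of stage 10.5 replicate A (0.14), stage 10.5 replicate B (0.084), stage 12.5 replicate A (0.09) and stage 12.5 replicate B (0.079). That of foxi1.S was lost without the letter term (0.057), in DESeq2 (0.062) and with stage 10.5 replicate A left out (0.14), stage 10.5 replicate B (0.098) or stage 12.5 replicate A (0.12). Ubp1.L, a grainyhead-related factor that marks ionocytes in this epidermis, had 37.5 and 14.8 CPM at stage 12.5, against 3.403 and 2.89 CPM at stage 10.5 (log2 fold change 3.03 ± 0.47, adjusted p = 0.0029). For ubp1.L it was 2.03 or 3.74 without stage 12.5 replicate A or B. The other genes called higher were tfcp2l1.S and slc4a1.L. The call of slc4a1.L was lost with no letter term (adjusted p = 0.11), under library size scaling (0.13) and when any library of the 2 stages was left out (0.075 to 0.32). The one called lower was ca12.L, a carbonic anhydrase, at -0.79, a call lost without the letter term (adjusted p = 0.13), stage 10.5 replicate A (0.086) or stage 10.5 replicate B (0.06). None of the 7 tested proton pump subunits passed the test, with log2 fold changes of -0.23 to 1.32. The key regulator dmrt2 was scarce: dmrt2.L had 4.28 and 2.09 CPM at stage 12.5, against 1.29 and 2.81 CPM at stage 10.5, with overlapping groups and no call. Dmrt2.S was at 0.588 and 0.479 CPM at stage 12.5 against 0.528 and 0.779 CPM at stage 10.5.

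Among secretory cell genes, 5 of 14 were higher (35.7%, against 13.2% of all genes) and 0 lower. The called members were otog.L, itln1.L, agr2.S, xbp1.L and xbp1.S. Besides foxa1, those not called were spdef.S (log2 fold change 2.025), itln1.S (1.42), agr2.L (0.99), ddc.L (0.52), creb3l1.S (0.28), tph1.S (-0.64) and creb3l1.L (-1.47). Otogelin (otog), a mucin-like glycoprotein, was among the 10 steepest rises of named genes with at least 5 CPM: otog.L had 256 and 137 CPM at stage 12.5, against 5.13 and 1.78 CPM at stage 10.5 (log2 fold change 5.87 ± 0.44, adjusted p = 0.000466 in edgeR). It was 6.59 without stage 10.5 replicate A. Itln1.L, a lectin of the goblet cells, had 5.42 and 4.54 CPM at stage 12.5, against 0.293 and 0.0502 CPM at stage 10.5. For itln1.L it was 4.99 ± 0.61 (adjusted p = 0.00165), and 6.35 or 4.23 without stage 10.5 replicate A or B. Agr2.S, a disulfide isomerase that folds mucins, had 47.3 and 22.1 CPM at stage 12.5, against 4.11 and 1.48 CPM at stage 10.5. Foxa1, the factor of small secretory cells, was scarce and not called in either copy, with foxa1.L at 0.850 and 0.302 CPM at stage 12.5 against 0.997 and 1.26 CPM at stage 10.5, and foxa1.S at 1.18 and 1.49 CPM at stage 12.5 against 0.704 and 0.754 CPM at stage 10.5.

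Of 26 Notch ligands, receptors and modulators, 6 were higher and 2 lower, against 13.2% and 13.4% of all genes, with a median of 0.20 that was -0.10 under library size scaling. The ligand dlc.L had 70.6 and 64.6 CPM at stage 12.5, against 15.8 and 22.1 CPM at stage 10.5 (log2 fold change 1.90 ± 0.33, adjusted p = 0.00425 in edgeR). Its call was lost without stage 10.5 replicate B (adjusted p = 0.053), and the log2 fold change was 1.31 without stage 12.5 replicate A. Both copies of the ligand dll1 also rose, by 1.03 for dll1.L and 1.76 for dll1.S, though dll1.L was not called without stage 10.5 replicate A. The ligand jag2.S was called lower (log2 fold change -1.54 ± 0.45, adjusted p = 0.0361 in edgeR), a call kept in 8 of 15 alternative settings. Not called were jag2.L (-0.74), dlc.S (-0.09), dll4.L (-0.10), jag1.L (-0.16) and jag1.S (0.61). Leaving out stage 10.5 replicate B or A left 2 or 3 members of this list called higher and 0 lower, and 0 were lower with no letter term or without stage 12.5 replicate A. The lower count was 1 when stage 12.5 replicate B or either stage 11.5 library was left out. Among the Hes, Hey and Nrarp genes, which include targets of the pathway, 15 of 29 were higher (51.7%) and 3 lower (10.3%). The list held 0.0654% (A) and 0.0668% (B) of counts at stage 12.5, against 0.0668% (A) and 0.0638% (B) at stage 10.5. Its share was thus about the same, while its summed level was 800 and 717.5 CPM against 650 and 571 CPM. Hes4.L was not called, with 158 and 68.9 CPM at stage 12.5 against 158 and 129 CPM at stage 10.5. The calls included several members of the hes5 cluster, whose near-identical copies can share reads. Hes5.4.L had 1.70 and 0.756 CPM at stage 12.5 and 0 in both libraries of stage 10.5, and was at least 15.0-fold higher against a floor of 3 counts. Its S copy had 2.61 and 1.81 CPM at stage 12.5, against 0.176 and 0.101 CPM at stage 10.5. Hes7.1.L was called lower in all libraries but not without the letter term (adjusted p = 0.14), stage 10.5 replicate A (0.22), stage 10.5 replicate B (0.068) or stage 12.5 replicate B (0.18), and its log2 fold change of -1.69 was -2.73 or -1.07 without stage 12.5 replicate A or B. Hes7.1.S fell to 0.654 and 0.302 CPM at stage 12.5, against 3.70 and 2.79 CPM at stage 10.5 (log2 fold change -2.81 ± 0.52, adjusted p = 0.00586). The calls of hes5.4.L and hes5.4.S were lost without stage 10.5 replicate B (adjusted p = 0.15 and 0.1) and with stage 12.5 replicate A left out (0.12 and 0.093), and that of hes5.4.L also without the letter term (0.061) and with stage 10.5 replicate A left out (0.1). The number of the list's genes called higher was 8 without the letter term, 2 without stage 10.5 replicate B, 5 without stage 10.5 replicate A, 6 without stage 12.5 replicate A and 9 when its replicate B was left out. The number called lower was 1 without the letter term, either stage 10.5 library or stage 12.5 replicate B.

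In the BMP pathway 9 of 33 genes were higher and 7 lower, against 13.2% and 13.4% of all genes. Ligands went both ways: bmp7.1.S had 5.72 and 3.12 CPM at stage 12.5, against 0.235 and 0.352 CPM at stage 10.5 (log2 fold change 3.89 ± 0.59, adjusted p = 0.00247 in edgeR), bmp4.S also rose, and bmp2.S fell to 1.08 and 0.605 CPM at stage 12.5, against 2.61 and 4.07 CPM at stage 10.5. For bmp7.1.S it was 3.13 or 4.59 without stage 12.5 replicate A or B, and that of bmp2.S, -1.99 in all libraries, was -2.65 or -1.39. Tll1.S, a relative of the metalloprotease that cuts the BMP antagonist chordin, had 30.1 and 50.9 CPM at stage 12.5, against 4.28 and 5.33 CPM at stage 10.5 (log2 fold change 3.04 ± 0.28, adjusted p = 0.000536). Leaving out stage 12.5 replicate B gave 14 higher and 2 lower members, and leaving out either stage 10.5 library or the letter term gave 2 lower. In the Wnt pathway 11 of 42 were higher (26.2%) and 7 lower, the lower share being 16.7%, near the 13.4% of all genes. The transcriptional effector lef1.L had 34.1 and 32.8 CPM at stage 12.5, against 6.10 and 8.07 CPM at stage 10.5 (log2 fold change 2.25 ± 0.19, adjusted p = 0.00047), and the receptor fzd10.S had 37.4 and 54.4 CPM at stage 12.5, against 6.34 and 9.999 CPM at stage 10.5 (2.51 ± 0.26, adjusted p = 0.000724). The antagonist dkk1.L fell to 0.654 and 0.252 CPM at stage 12.5, against 2.85 and 1.81 CPM at stage 10.5, a call lost without the letter term (adjusted p = 0.052) and with stage 10.5 replicate A left out (0.15), stage 10.5 replicate B (0.083) or stage 12.5 replicate B (0.11), while its log2 fold change of -2.40 was -3.12 without stage 12.5 replicate A. The Wnt counts were 4 higher and 2 lower without stage 10.5 replicate B, 6 higher and 1 lower without its replicate A, and 7 higher and 1 lower with no letter term. Leaving out stage 12.5 replicate A gave 6 higher, and leaving out its replicate B gave 3 lower.

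Factors of blastula competence moved apart from one another. Of 31 tested, 13 were lower (41.9%, against 13.4% of all genes) and 6 higher (19.4%, against 13.2%). Pou5f3.3, a POU factor of the Oct4 family with a maternal supply, had 17.2 and 16.8 CPM from its L copy at stage 12.5, against 63.6 and 87.0 CPM at stage 10.5 (log2 fold change -2.16 ± 0.33, adjusted p = 0.00262 in edgeR), and pou5f3.3.S fell by 1.98 on the log2 scale. At stage 11.5, pou5f3.3.L had 109 CPM in A and 47.4 CPM in B, so the letters differed there. At stage 9 it had 919 and 900 CPM, so it had already fallen before stage 10.5. Its relative pou5f3.1.L rose to 1564 and 1134 CPM at stage 12.5, against 716 and 634 CPM at stage 10.5 (0.99 ± 0.17, adjusted p = 0.00424). Foxd3, a repressor that keeps ectoderm competent, was nearly absent late: foxd3.L had 0.261 and 0.151 CPM at stage 12.5, against 2.08 and 4.45 CPM at stage 10.5, and foxd3.S had 0 in both libraries of stage 12.5 and 0.704 and 0.955 CPM at stage 10.5, at least 9.56-fold lower against a floor of 3 counts. The log2 fold change of foxd3.L, -3.96 ± 0.45 (adjusted p = 0.000908), was -4.62 or -3.28 without stage 12.5 replicate A or B. Foxh1.2.L, a partner of Smad2 in Nodal signalling, fell to 12.2 and 5.49 CPM at stage 12.5, against 66.9 and 52.1 CPM at stage 10.5. The call of pou5f3.3.S was lost without stage 10.5 replicate B (adjusted p = 0.055) or stage 12.5 replicate A (0.055), and the list gave 8 lower and 1 higher when stage 10.5 replicate B was left out. The higher count was 3 without stage 10.5 replicate A, 1 without stage 12.5 replicate A and 2 with no letter term.

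Maternal and oocyte transcripts were lower in 17 of 38 cases and higher in 1 (ddx4.L), a call lost under library size scaling (adjusted p = 0.3), with no letter term (0.055) and without stage 10.5 replicate A (0.075), stage 10.5 replicate B (0.33) or stage 12.5 replicate B (0.13). Cyclin A1 (ccna1.L), the embryonic cyclin of the early divisions, had 10.2 and 11.6 CPM at stage 12.5, against 40.6 and 55.4 CPM at stage 10.5 (log2 fold change -2.14 ± 0.30, adjusted p = 0.00186 in edgeR). Patl2.L, a translational repressor of oocytes, had 2.48 and 2.87 CPM at stage 12.5, against 11.3 and 15.2 CPM at stage 10.5. Both groups of values were clearly apart in both genes. Both genes had already fallen before stage 10.5: at stage 9, ccna1.L had 993 (A) and 1117 (B) CPM and patl2.L had 94.25 and 99.7 CPM. The summed level of the list was 4362 (A) and 5261 (B) CPM at stage 9 and 1562 and 1587 CPM at stage 10.5. At stage 12.5 it was 1165 and 1205 CPM, so the larger part of the fall came before stage 10.5. Of the list, 44.7% was called lower and 2.63% higher, against 13.4% and 13.2% of all genes. The list held 0.0952% (A) and 0.112% (B) of counts at stage 12.5, against 0.160% (A) and 0.177% (B) at stage 10.5, and 9 members were called lower without stage 10.5 replicate B and 11 with no letter term. Cell cycle genes moved both ways, with 15 of 58 higher and 11 lower, against 13.2% and 13.4% of all genes. The mitotic cyclin ccnb1.L had 26.4 and 20.8 CPM at stage 12.5, against 99.8 and 116 CPM at stage 10.5 (log2 fold change -2.21 ± 0.22, adjusted p = 0.000642), and ccnb1.S fell alike, by 2.22. Ccnb1.L had already fallen before stage 10.5, from 706 (A) and 705 (B) CPM at stage 9. Of 4 tested copies of inhibitors of cyclin-dependent kinases, cdkn1a.L, cdkn1a.S and cdknx.L rose and cdkn1b.S was not called (log2 fold change -0.14, adjusted p = 0.813). Cdkn1a.S had 33.8 and 18.7 CPM at stage 12.5, against 10.3 and 6.46 CPM at stage 10.5 (1.63 ± 0.18, adjusted p = 0.00079), and cdknx.L had 144 and 87.6 CPM at stage 12.5, against 47.4 and 39.1 CPM at stage 10.5. The median of the cell cycle list, 0.04, was -0.26 under library size scaling. Without stage 10.5 replicate B, 5 members were higher and 7 lower, with stage 10.5 replicate A left out 6 were lower, and with no letter term 7 were lower.

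Ribosomal protein genes, which encode the subunits of cytosolic ribosomes, rose almost without exception: 111 of 115 tested were called higher and 0 lower. The higher share was 96.5%, against 13.2% of all genes. The other 4 were rpl24.S, rpl35a.L, rpl35a.S and rps26.L, all with positive log2 fold changes. The range of the group was narrow, from 0.33 to 1.75, and its median of 1.11 was 0.81 under library size scaling. Rpl39.S had 31.8 and 42.4 CPM at stage 12.5, against 11 and 11.1 CPM at stage 10.5 (log2 fold change 1.75 ± 0.21, adjusted p = 0.00107 in edgeR). Rps10 had 64.1 and 50.4 CPM at stage 12.5, against 19.3 and 15.0 CPM at stage 10.5 (1.74 ± 0.24). All ribosomal protein genes together held 0.858% (A) and 0.833% (B) of counts at stage 12.5, against 0.507% (A) and 0.486% (B) at stage 10.5, and the letters were close at both stages. Without stage 10.5 replicate B, 69 were called higher.

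**Figure D2:**
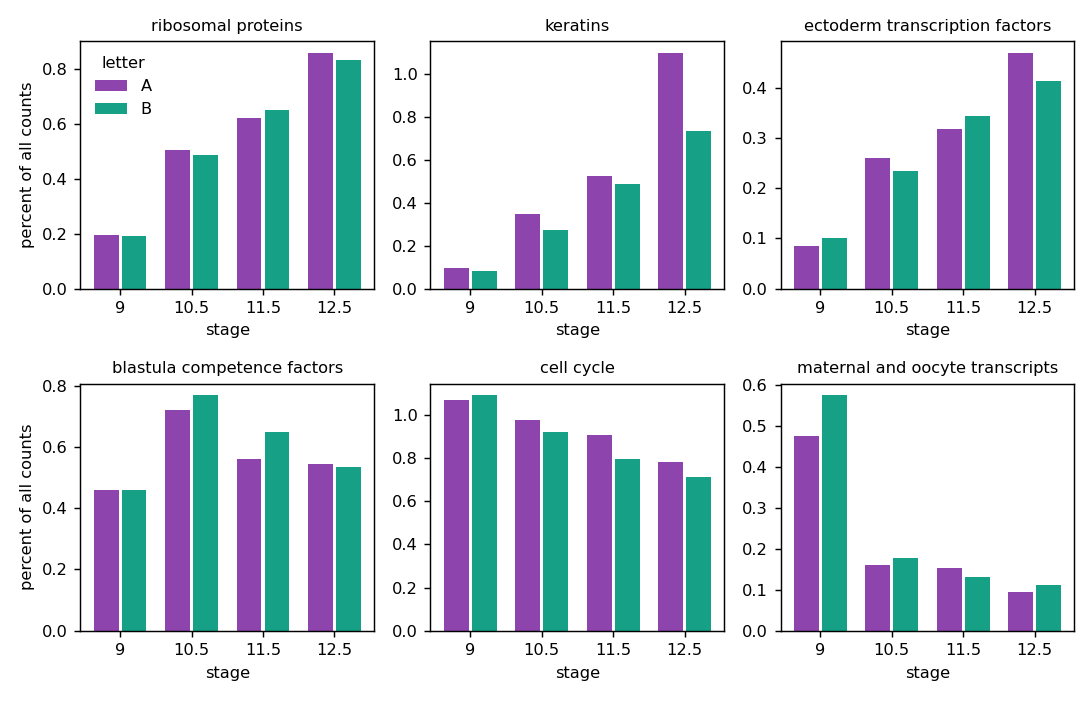
The percent of all counts in each library held by ribosomal proteins, keratins, ectoderm transcription factors, blastula competence factors, cell cycle genes and maternal transcripts is plotted by stage, with letter A and letter B as separate bars. Ribosomal proteins and keratins are higher at stage 12.5 than at stage 10.5 in both letters, and maternal transcripts are lower.

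Most markers of other tissues did not pass the test, nor did most genes as a whole, of which 26.6% were called. The mesoderm and endoderm list had the lowest median of all lists, at -1.21. Of 39 mesoderm and endoderm genes tested, 10 were lower and 1 (gata4.S) higher, against 13.4% lower and 13.2% higher among all genes. The number called lower was 2 without stage 10.5 replicate B, 6 without stage 12.5 replicate A and 3 with no letter term, and the number called higher ranged over 0 to 3 as single libraries were left out. Foxa4, a floor plate and organizer factor, had 0.196 and 1.29 CPM from its L copy at stage 12.5, against 4.64 and 11.3 CPM at stage 10.5, and myod1.S, the skeletal muscle determination factor, had 0.196 and 0.302 CPM at stage 12.5, against 2.79 and 2.21 CPM at stage 10.5 (log2 fold change -3.27, adjusted p = 0.00196 in edgeR). The call of foxa4.L was lost without the letter term (adjusted p = 0.074) and with stage 10.5 replicate B left out (0.068) or stage 12.5 replicate A (0.075), and that of gata4.S without the letter term (0.11) and with stage 10.5 replicate A left out (0.23), stage 10.5 replicate B (0.053) or stage 12.5 replicate A (0.17). Without stage 12.5 replicate B the log2 fold changes were -4.66 for foxa4.L and 3.28 for gata4.S, both larger than with all libraries. The summed level of the list was 78.1 (A) and 376 (B) CPM at stage 12.5, against 143 (A) and 359 (B) CPM at stage 10.5, so letter B was above letter A at both stages. Vegt and the posterior factor cdx4 carried much of it. Vegt.S had 11.9 (A) and 82.5 (B) CPM at stage 12.5, against 40.0 (A) and 103 (B) CPM at stage 10.5. Cdx4.L had 6.99 (A) and 99.5 (B) CPM at stage 12.5, against 6.16 (A) and 26.9 (B) CPM at stage 10.5. No copy of vegt or cdx4 was called. Of the list's 49 genes, 7 had no count at stage 12.5 and 4 had none at stage 10.5. The part of these transcripts in the other results was not tested.

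Neural genes gave 9 of 32 lower and 4 higher. These shares were 28.1% and 12.5%, against 13.4% and 13.2% of all genes, so the higher share was near that of all genes. The anterior factor otx2.L had 36.9 and 10.8 CPM at stage 12.5, against 2.99 and 1.81 CPM at stage 10.5 (log2 fold change 3.18 ± 0.43, adjusted p = 0.00159 in edgeR), and 2.33 or 3.82 without stage 12.5 replicate A or B. The adhesion molecule ncam1.L had 31.9 and 24.3 CPM at stage 12.5, against 4.96 and 4.70 CPM at stage 10.5 (2.53 ± 0.21, adjusted p = 0.00047). The eye-field factor rax.L was scarce at stage 12.5, with 0.327 and 0.0252 CPM, against 2.64 and 2.26 CPM at stage 10.5, and its call was lost without stage 10.5 replicate B (adjusted p = 0.052), while its log2 fold change of -3.98 was -6.29 or -3.04 without stage 12.5 replicate A or B. Leaving out stage 10.5 replicate B or A gave 2 or 4 lower and 2 higher members, 5 were lower without stage 12.5 replicate B, 2 were higher without stage 12.5 replicate A, and 4 were lower with no letter term. In the neural crest list 3 of 14 were lower and 1 higher (sox8.L, not called with no letter term or without either stage 10.5 library or stage 12.5 replicate A, at adjusted p of 0.1 to 0.26), with ets1.L at 3.99 and 3.91 CPM at stage 12.5 against 22.7 and 21.0 CPM at stage 10.5. In the blood and muscle list 1 of 11 was lower (lmo2.S, not called with no letter term, adjusted p = 0.13, nor without stage 10.5 replicate A, 0.1, or B, 0.12) and 1 higher (hba3.L, not called without the letter term, adjusted p = 0.089, or without stage 10.5 replicate A, 0.14, replicate B, 0.36, or stage 12.5 replicate A, 0.16), with summed levels of 15.3 and 12.6 CPM at stage 12.5 against 15.0 and 17.2 CPM at stage 10.5. For lmo2.S the log2 fold change of -3.43 was -2.67 without stage 12.5 replicate A, which held 0 counts of it. The shares called were 21.4% lower and 7.14% higher in the neural crest list, and 9.09% each way in the blood and muscle list. Both copies of ets1 were called lower, and both had already fallen before stage 10.5. At stage 9, ets1.L had 186 (A) and 155.5 (B) CPM. Ets1.S had 178 and 201 CPM at stage 9, against 13.85 and 13.06 CPM at stage 10.5.

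Some of the steepest changes among named genes with at least 5 CPM belonged to no list. Rises included cmahp.L, with 9.998 and 4.99 CPM at stage 12.5 against 0.176 and 0 CPM at stage 10.5, and ugt8.S, a galactosyltransferase of glycolipid synthesis, with 5.78 and 7.08 CPM at stage 12.5 against 0.293 and 0.302 CPM at stage 10.5. The ID Xelaev18002015m had 7.65 and 3.68 CPM at stage 12.5, against 0.235 and 0 CPM at stage 10.5. Falls included dand5.L, an antagonist of Nodal and BMP ligands, with 5.10 and 6.75 CPM at stage 12.5 against 24.4 and 67.4 CPM at stage 10.5 (log2 fold change -2.85 ± 0.28, adjusted p = 0.000651 in edgeR), and dand5.S fell by 3.06. Arhgap11a.2.L and arhgap11a.2.S fell by 3.06 and 2.90, and angptl4.L, sh2d3c.L, apold1.L and ccndx.S fell by 3.23, 2.96, 2.96 and 2.96. The call of ugt8.S was lost without stage 10.5 replicate A (adjusted p = 0.057) or B (0.076), and that of apold1.L without the letter term (0.089) and with stage 10.5 replicate B left out (0.08). The log2 fold change of cmahp.L was 5.49 without stage 10.5 replicate B and that of Xelaev18002015m 4.59. Without stage 10.5 replicate A, the remaining early library held no count of either, and the fitted value is no bound. The log2 fold change of ccndx.S was -2.14 to -4.18 when single libraries of the 2 stages were left out, that of apold1.L was -3.72 without stage 12.5 replicate B and that of arhgap11a.2.S was -3.90.

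The values at stage 11.5 placed most called genes between the levels of the 2 stages. By stage 11.5 the genes called higher had covered a median of 44.2% of their log2 change (quartiles 34.2% and 54.1%), and the genes called lower a median of 38.5% (27.3% and 49.6%). A test of whether the step to stage 12.5 differed from the step to stage 11.5 called 0 genes in edgeR (Benjamini-Hochberg adjusted), with 800 genes (2.81%) at an unadjusted p under 0.05. DESeq2 called 4. The share of 2.81% is below what chance alone would give at that p. With 3 residual degrees of freedom the test could miss unequal steps, so 0 calls do not show that the steps were equal. At stage 11.5, otog.L had 12.9 (A) and 17.9 (B) CPM and krt12.S had 170 and 256 CPM, and cyclin B1 (ccnb1.L) had 85.7 and 50.3 CPM. Each of these lay between the levels of the 2 stages in both letters.

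**Figure D3:**
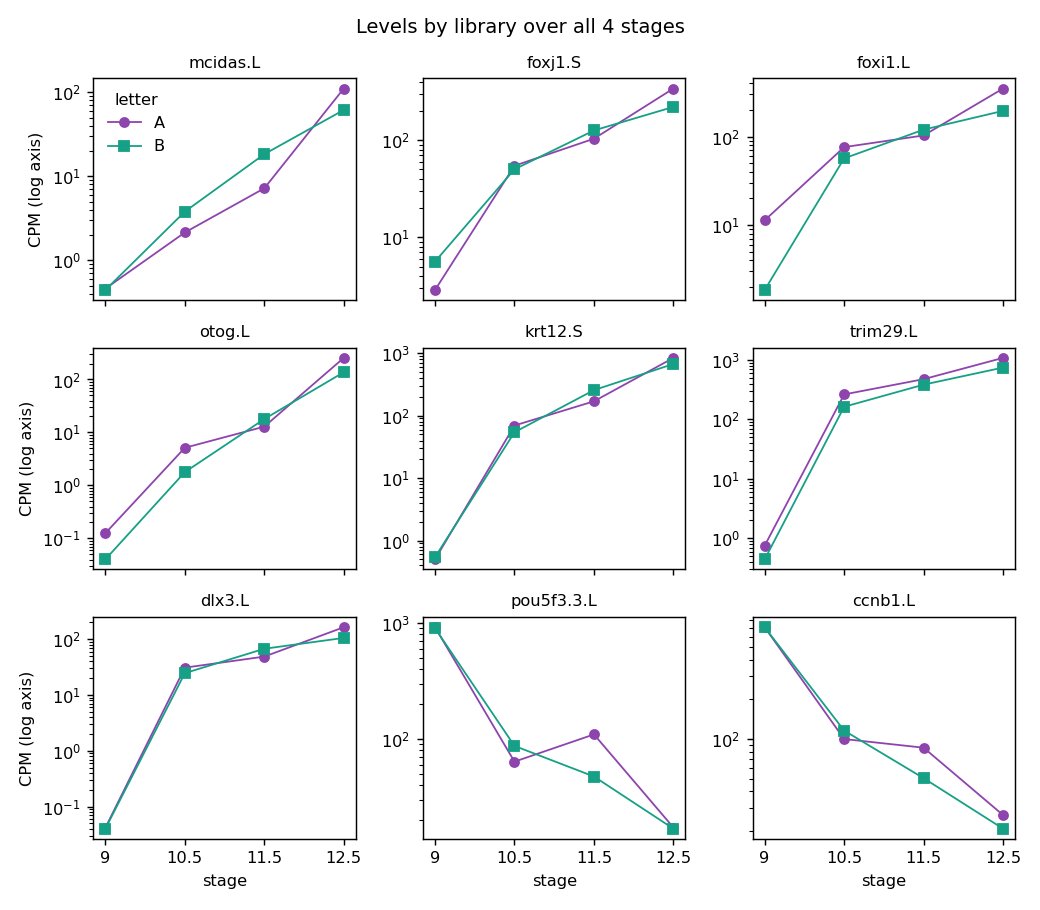
Levels in CPM (log axis) over the 4 stages of the series are shown for 9 genes, with letter A as circles and letter B as squares. Mcidas.L, foxj1.S, foxi1.L, otog.L, krt12.S, trim29.L and dlx3.L are higher at stage 12.5 than at stage 10.5 in both letters, and pou5f3.3.L and ccnb1.L are lower.

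Because this frog is allotetraploid, most genes have an L and an S copy from its 2 subgenomes, and the ratio of L to S was tested in 4784 pairs. With limma on log2((L CPM + 1)/(S CPM + 1)), the ratio changed in 1043 pairs (21.8%), of which 577 (12.1%) shifted towards L and 466 (9.74%) towards S, at an adjusted p under 0.05. Both copies were called higher in 394 pairs and both lower in 394, and 62 pairs were called in opposite directions. Of all 4784 pairs, L was called in 1703 and S in 1611, with only 1 copy called in 1614 and neither in 2320. Pairs with both copies in the same direction made up 46.3% of those with L called and 48.9% of those with S called. The log2 fold changes of L and S had a Pearson correlation of 0.453 across pairs, which are not independent replicates. Liph, a membrane phospholipase, had the largest shift towards L: liph.L had 16.2 and 5.42 CPM at stage 12.5, against 0.352 and 0.251 CPM at stage 10.5, while liph.S fell to 12.5 and 15.2 CPM at stage 12.5, against 30.2 and 31.0 CPM at stage 10.5 (ratio change 4.11 ± 0.48, adjusted p = 0.0075). The log2 fold change of liph.L, 5.03, was 4.29 or 5.64 without stage 12.5 replicate A or B. Dscaml1 and eps8l1 followed, at 3.58 and 3.44. Aim1 had the largest shift towards S: aim1.S had 64.9 and 57.9 CPM at stage 12.5, against 14.9 and 15.5 CPM at stage 10.5, while aim1.L had 37.7 and 38.2 CPM at stage 12.5, against 83.7 and 87.6 CPM at stage 10.5 (ratio change -3.10 ± 0.36, adjusted p = 0.00745). Socs4 and rab27a followed, at -3.06 and -2.99. The number of pairs called was 358 without the letter term, and 0, 86, 129 and 453 without stage 10.5 replicate B, stage 10.5 replicate A, stage 12.5 replicate A and stage 12.5 replicate B. How reads shared between near-identical copies were assigned is not given in the sources used here, so values of single copies are uncertain.

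**Figure D4:**
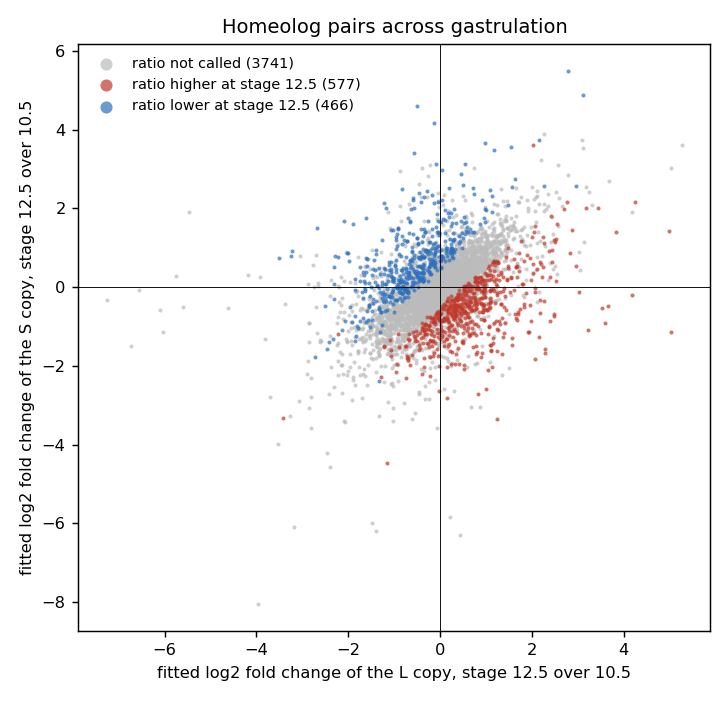
The fitted log2 fold change of the L copy (horizontal axis) and of the S copy (vertical axis) is plotted for each of 4784 pairs, with pairs whose L to S ratio was called in colour. Most called pairs lie off the diagonal, with 577 shifted towards L and 466 towards S.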

How the data were processed

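Messenger RNA of animal cap explants was measured in 8 libraries, of which the 4 of stages 12.5 and 10.5 are compared. The deposited tables of the authors give a raw count for every gene, 1 table a library, not normalized. Per the submitters' processing notes, FastQC 0.11.5, STAR 2.6.0b-1, featureCounts 1.6.3 and DESeq2 1.22.1 were used. The genome build is not given in the sources used here, and the authors' tables of fold changes were not used here. The authors' symbol table names 48349 of 51017 gene IDs.

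Software was edgeR 4.0.16 and limma 3.58.1 under R 4.3.3, with DESeq2 1.42.0 as an alternative. Genes were kept with filterByExpr by stage, scaled by TMM factors and tested by edgeR's quasi-likelihood test with stage and letter as terms, fitted to the 8 libraries together (3 residual degrees of freedom). Benjamini-Hochberg adjustment ran over all 28490 tested genes, at a threshold of 0.05. CPM are counts per 1e+06 of the scaled library size. Standard errors were derived from the F statistic. Homeolog ratios used a pseudocount of 1 CPM. For a gene with at most 3 counts in both libraries of a stage, a floor of 3 counts per library, 0.0754 to 0.0980 CPM in these 4 libraries, gave a bound. It covers counting error only.

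Letters pair the libraries: deviations from the stage means went together within a letter, with r of 0.374 to 0.597 over the 6 pairings of stages. The chi-square per degree of freedom between the libraries of a stage was 46.8 at stage 12.5 and 32.1 at stage 10.5, so they are not repeat deposits.

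Members and the 31 lists were chosen with earlier results of these data known. Named are the 10 largest called rises and falls with a symbol other than a LOC number. They were taken among genes with a mean of at least 5 CPM in the higher stage and 1 direction in both letters. All tested copies of the key regulators are named, and the 3 homeolog pairs with the largest called ratio change in each direction. The 2 largest called rises and falls of each list were followed through the alternative settings, but only some of them are named. Those left out include dsc3.S (log2 fold change -1.55), wnt7a.S (-3.34) and dtx1.L (2.29). No gene met the naming rule for unequal steps, since 0 were called. Other genes were named after their values were seen, or to complete a list's calls. Alternatives were library size scaling, RLE factors, no low count filter, no letter term, DESeq2, fits on fewer stages and leaving out each library.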

Additional observations from a re-analysis of the deposited data

How the results depend on the processing

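The number of genes called was 7569 with the settings of the report, 7575 with RLE factors, 8325 with no low count filter, 8844 in DESeq2, 10174 with the 4 libraries alone and 8766 without stage 9. Without the replicate block it was 4006 (2032 higher and 1974 lower). Library size scaling gave 2107 higher and 6352 lower genes. Leaving out single libraries gave 2007 to 8680 calls (942 to 4202 higher, 1065 to 4478 lower) and, for homeolog ratios, 0 to 1215 pairs against 1043, with 358 without the replicate block. The test of unequal steps called 0 genes, but 10 with no low count filter, 4 in DESeq2 and 0 to 15 when libraries were left out. Of 258 called genes examined, 109 kept direction and call under all 15 alternatives, and 0 changed direction. Estimates of 2 uncalled genes changed sign: dmrt2.L was -0.795 or 2.12 without stage 12.5 replicate A or B, and dmrt2.S was -0.658 or 0.108. Where a library is left out, the lone library of that stage is assumed to vary like the others, and the cause of the changes was not tested. Some list members came from name patterns: col4a3bp, itgb1bp2, itgb3bp, fgfr1op, fgfr1op2 and psmc3ip are not collagens, integrins, FGF receptors or proteasome subunits, although their names begin alike.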

Other observations

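Among genes of cell metabolism and of the proteasome, more were called higher than lower, though the higher counts fell in several other settings. Of 113 oxidative phosphorylation genes, 28 were higher and 3 lower at stage 12.5 (13.2% and 13.4% among all genes), with a median log2 fold change of 0.38 that was 0.09 under library size scaling, and 1 was higher without stage 10.5 replicate B and 3 without replicate A of that stage. With no letter term 12 were higher, and without stage 12.5 replicate A 16. The steepest was ndufa8.L, a subunit of complex I, with 55.5 and 51.8 CPM at stage 12.5 against 15.6 and 13.4 CPM at stage 10.5 (log2 fold change 1.89 ± 0.17, adjusted p = 0.000536 in edgeR). Of 68 proteasome genes, 17 were higher and 2 lower, but 1 was higher without stage 10.5 replicate B and 5 without replicate A of that stage, 10 without stage 12.5 replicate A and 9 with no letter term. The proteasome shares were 25% higher and 2.94% lower. Under library size scaling 7 were higher, and the list's median of 0.28 was -0.02. Proteasome genes held 0.339% (A) and 0.360% (B) of counts at stage 12.5, against 0.364% (A) and 0.368% (B) at stage 10.5. Psmd14.L, a deubiquitinase of the proteasome lid, had 15.1 and 17.3 CPM at stage 12.5, against 3.34 and 2.69 CPM at stage 10.5 (log2 fold change 2.45 ± 0.27, adjusted p = 0.000851 in edgeR). Of 11 fatty acid elongases, 4 were higher (36.4%) and 0 lower. The higher count was 2 without the letter term, and it also fell without stage 10.5 replicate B. Elovl7.L had 479 and 451 CPM at stage 12.5 against 179 and 165 CPM at stage 10.5 (log2 fold change 1.43 ± 0.14, adjusted p = 0.00063 in edgeR).

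Integrins, laminins and collagens gave 12 of 69 higher and 4 lower, of which the copies of col4a3bp, a ceramide carrier, account for 2 of the lower. These shares were 17.4% and 5.8%, against 13.2% and 13.4% of all genes, and the higher count was 5, 6 or 7 without stage 10.5 replicate A, its replicate B or stage 12.5 replicate A. With no letter term 6 were higher and 2 lower, and 2 were lower without stage 10.5 replicate A. Col18a1.L, a basement membrane collagen, had 133 and 73.1 CPM at stage 12.5, against 17.3 and 15.7 CPM at stage 10.5 (log2 fold change 2.66 ± 0.44, adjusted p = 0.00384 in edgeR), and 1.88 without stage 12.5 replicate A. The integrin subunit itgb8.L fell to 4.51 and 6.42 CPM at stage 12.5, against 14.0 and 28.4 CPM at stage 10.5. In the FGF pathway 4 of 26 were higher and 4 lower, 15.4% each way and near the 13.2% and 13.4% of all genes. The higher genes include fgfr1op.L, and the 26 also include both copies of fgfr1op2. None of these is an FGF receptor. The lower count was 0 without stage 10.5 replicate B or the letter term, 2 without stage 10.5 replicate A, or 1 if stage 12.5 replicate A was left out, and 2 were higher with no letter term. The receptor fgfr2.S had 116 and 88.7 CPM at stage 12.5, against 35.6 and 31.8 CPM at stage 10.5 (1.59 ± 0.19, adjusted p = 0.000973), and the ligand fgf8.L had 0.948 and 4.13 CPM at stage 12.5, against 6.60 and 10.4 CPM at stage 10.5. Its call was lost without the letter term (adjusted p = 0.11) and with stage 10.5 replicate A left out (0.092), stage 10.5 replicate B (0.13) or stage 12.5 replicate A (0.066), and its log2 fold change of -1.85 was -1.17 or -2.97 without stage 12.5 replicate A or B. Of 23 retinoic acid genes, 5 were higher and 4 lower, but 0 were higher without stage 10.5 replicate A or stage 12.5 replicate A, 1 without stage 10.5 replicate B, and 2 higher and 2 lower with no letter term. The retinoic acid shares were 21.7% higher and 17.4% lower, against 13.2% and 13.4% of all genes. Aldh1a2.L, the enzyme that makes retinoic acid, fell to 10.4 and 10.98 CPM at stage 12.5, against 31.5 and 27.4 CPM at stage 10.5 (log2 fold change -1.45 ± 0.17, adjusted p = 0.00106 in edgeR). Of 42 mRNA decay genes, 9 were higher (21.4%) and 6 lower, the lower share of 14.3% being near the 13.4% of all genes. These counts were 2 and 1 without stage 10.5 replicate B and 2 and 2 without its replicate A, 4 were higher without stage 12.5 replicate A, and 3 were lower with no letter term. Of 24 immediate-early genes 1 was higher (4.17%) and 6 lower (25%), against 13.2% and 13.4% of all genes. The lower count was 3 with no letter term. It also fell without either stage 10.5 library and without stage 12.5 replicate B.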
